A study of Mus musculus with 7 samples.

Results

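The genes described here encode chromatin modifiers and remodellers whose mRNA carried a called site in at least 1 of 3 immunoprecipitations of HuR, an RNA-binding protein (gene Elavl1). They were chosen by name from 6277 genes with a site: those whose symbol begins with Kdm, Kmt, Setd, Chd, Brd, Hdac, Arid, Kat, Phf, Nsd, Tet or Dnmt followed by a digit, or with Smarc, Ino80, Ash1, Ash2, Ehmt, Ep300, Ep400 or Crebbp. The rule took in 92 genes and 342 sites. The number or strength of the sites is not part of the rule, though it was chosen with earlier results of these data known.

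The samples were from CT26.WT, a mouse colon carcinoma cell line of wild-type genotype grown in culture without further treatment. The series holds 3 immunoprecipitations with an antibody against endogenous HuR, 3 made with IgG as control, and 1 total RNA input, in a study of fat uptake by the intestine. A cancer cell line in culture stands in for intestinal cells here, and the labels do not say whether the immunoprecipitations came from separate cultures. The data analysed are the sites that the authors called in each HuR immunoprecipitation, referred to below as lists 1, 2 and 3. Data of the IgG samples and the input were not analysed here, and read depth is unknown. The control library behind the authors' site values is not given, so whether these values compare HuR with IgG is unknown.

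HuR binds U-rich and AU-rich stretches of RNA, mostly in introns and in the untranslated regions at the end of mRNAs, and is known for stabilising its targets. Chromatin regulators act one step earlier, on the DNA template. Methyltransferases, acetyltransferases and their opposing erasers add or remove marks on histone tails, reader proteins with bromodomains or PHD fingers recognise those marks, and ATPase complexes such as SWI/SNF slide or evict nucleosomes.

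The label was first set against the annotation in the files. Of the 92 genes, 87 had Gene Ontology terms. Of those, 76 (87.4%) had a term naming chromatin, histones, nucleosomes, DNA methylation or demethylation, bromodomains or SWI/SNF, or holding the letters acetyl. The share was 13.2% of the other 5778 annotated genes. The letters acetyl also match terms other than acetylation, so both shares can include genes without a chromatin term. Some members do other work. Phf5a encodes a subunit of a splicing complex, Setd3 encodes an enzyme known as a histidine methyltransferase of actin, and Brd3os is the gene opposite Brd3. Of 7 markers of colon epithelium, Krt20 had a site in lists 2 and 3 and Krt18 in list 2, while none of the 4 immune or the 2 endothelial markers had a listed site. Of markers of other cells, 1 of 3 fibroblast and mesenchymal genes, Col1a1, had a site in list 1, and 1 of 2 erythroid genes, Hbb-bs, had a site in list 2. A listed site shows called enrichment and not expression, so a marker without one is no sign that the cells lack it.

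Lists 1, 2 and 3 held 100, 83 and 159 sites in members, in 59, 52 and 64 genes. As a share of the 92 genes, that is 64.1%, 56.5% and 69.6% in lists 1, 2 and 3, against 54.5%, 57.8% and 62.8% of all 6277 genes. A fold below is the authors' ratio of signal over control for a single site. The median fold of member sites in lists 1, 2 and 3 was 7.79, 6.41 and 8.64, and over all sites of these lists it was 7.21, 6.41 and 8.38. Their median length was 146.5, 162 and 149 bases, against 176, 161 and 152 bases for all sites. The caller's FDR at member sites lay between 14.1 and 17.4% in list 1, between 12.4 and 13.7% in list 2, and between 9.32 and 13.1% in list 3. No value carries replicate error.

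A site was found in all 3 lists for 25 of the 92 members (27.2%), where 19.9% of all genes with a site met the same criterion. Sites in at least 2 lists were held by 58 members (63%), against 55.2% of all genes, and 34 members (37%) were in a single list, against 44.8%. The 34 comprised 11 genes of list 1, 9 of list 2 and 14 of list 3. Among the 161 Zfp and Zbtb zinc finger genes, another large set of nuclear regulators, 9.94% were in all lists and 36.6% in at least 2. Of 86 chromatin genes outside the rule with a site, described below, 27.9% were in all lists. These shares are descriptions: genes are not replicates, and longer or more abundant transcripts, whose lengths and levels were not analysed here, cannot be told apart from transcripts that HuR holds more often. The 25 genes include those of enzymes that write or erase histone marks, of reader proteins and of remodellers. Of the 25, 15 stayed in all lists when a score of at least 70 was required. The score grows as the caller's p falls, and this setting asks for a p 100 times smaller than the largest p in the lists. The share was then 18.3% of 82 members, with 11.5% of all genes. If symbols that end with the listed pattern are left out, as Chd2 and Hdac4 would be, 56 members remain and 12 of them (21.4%) were in all lists, close to the 19.9% of all genes. With 1 list left out, the criterion becomes a site in both others, which is easier to meet. It was met by 43.2% of members without list 1, against 42.1% of all genes, by 48.2% without list 2, against 34.8%, and by 42.3% without list 3, against 34.7%.

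**Figure D1:**
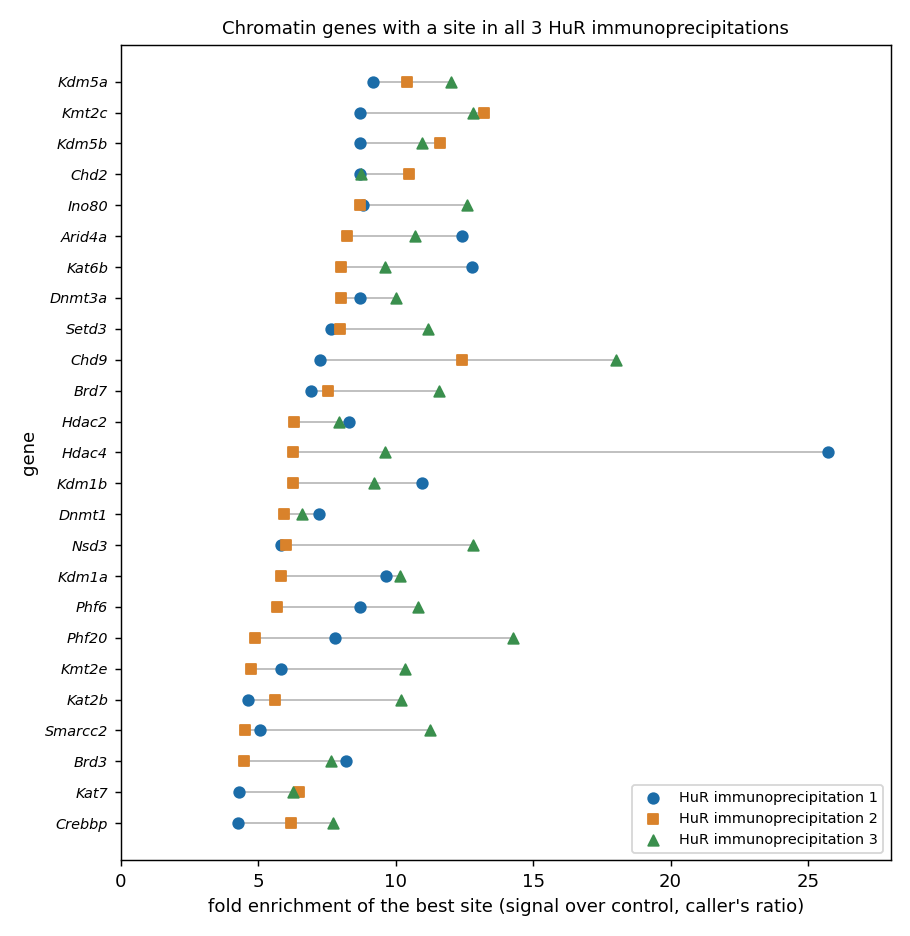
Fold enrichment (horizontal axis, signal over control as the caller gives it) of the best site of each of the 25 chromatin genes with a site in all 3 HuR immunoprecipitations, 1 marker per immunoprecipitation and a grey line over their range. Genes are ordered by their lowest value, which is 9.18 for Kdm5a at the top and 4.25 for Crebbp at the bottom, and the site of Hdac4 in list 1 stands furthest right at 25.7.

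By role, the share in all lists ran between 4 of 7 acetyltransferase genes (57.1%) and 2 of 14 SWI/SNF genes (14.3%) among the groups of more than 3 genes. Over all genes with a site it was 19.9%, and groups this small do not set the roles apart. The order also depended on the setting. At a score of at least 70, none of Crebbp, Kat2b, Kat6b and Kat7 stayed in all lists, while the SWI/SNF genes Brd7 and Smarcc2 did. Demethylases and methyltransferases had 4 of 14 each (28.6%) and deacetylases 2 of 6 (33.3%). The other ATPase remodellers had 3 of 14 (21.4%), and bromodomain and PHD finger readers 3 of 17 (17.6%). Roles were given by gene name and not by known activity. Demethylases are thus the Kdm names alone, and all Brd and Phf names outside SWI/SNF count as readers, Phf2, Phf8, Phf5a and Brd3os included. The other 2 groups were small, with 2 of 3 genes of DNA methylation and 1 of 3 ARID genes outside SWI/SNF. Of the 139 protein-coding names that match the rule in a RefSeq gene table, 47 had no listed site, which says nothing of their expression. The same share over all protein-coding names was not worked out.

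**Figure D2:**
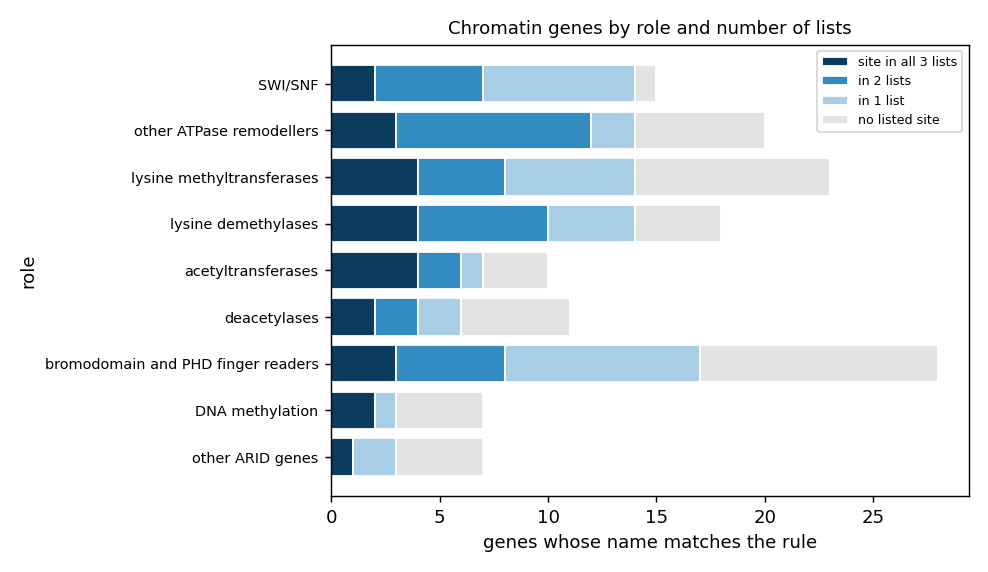
Number of genes whose name matches the rule (horizontal axis), by role, split by the number of HuR lists that hold a site. SWI/SNF had a site for 14 of 15 names, 2 of them in all lists, and acetyltransferases for 7 of 10, 4 of them in all lists. Over all genes with a site, 19.9% were in all lists. The share of all protein-coding names with a site was not worked out.

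The histone lysine demethylase genes Kdm5a and Kdm5b encode enzymes that remove methyl groups from the histone H3 mark of active promoters. Kdm5a had best folds of 9.18, 10.4 and 12.01 in lists 1, 2 and 3, the highest minimum of the members in all lists. The next minimum was 8.72, in Chd2, Kdm5b and Kmt2c. Each of these values occurred at 128 sites of list 1, so the rank is not firm. Kdm5b had 8.72, 11.6 and 10.9. Each of the pair had a single region with a site in more than 1 list, in lists 2 and 3 with the same start and end: chr6:120367615-120367796 in Kdm5a, with folds of 9.21 and 8.41, and chr1:134532180-134532361 in Kdm5b, with folds of 11.2 and 9.21. All coordinates are on mm39, counted from 1. Same bounds are usual in these lists: 76.3% of all sites that overlapped a site of another list had them. What sets the shared bounds was not tested.

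The flavin-dependent demethylase genes Kdm1a and Kdm1b were in all lists too. Kdm1b had best folds of 10.96, 6.26 and 9.21 and was 1 of 4 members with a region common to all 3 lists. This region, chr13:47216434-47216618, had the same start and end each time, with folds of 6.23, 6.26 and 7.88. A second region of Kdm1b, chr13:47204086-47204175, was in lists 1 and 3 with folds of 9.18 and 9.21. The 4 sites of list 1 and 3 sites of list 3 in this gene all lay within 13965 bases. Kdm1a reached 9.64, 5.83 and 10.2, with 1 region shared by lists 2 and 3 (chr4:136284953-136285064, folds 4.07 and 10.2).

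Another 6 Kdm genes were each in 2 lists. Kdm2b, which encodes a CpG-binding F-box protein of a Polycomb complex, had folds of 7.35 in list 1 and 11.2 in list 2 at the same position, chr5:123085790-123085943. Its relative Kdm2a had 6.24 in list 2 and 8.69 in list 3 at chr19:4400205-4400358. Kdm4a reached 15.1 in list 3 and 10.9 in list 2 with no overlap between the lists, and Kdm3a, Kdm4b and Kdm4c had none either. Kdm3b, Kdm5c, Kdm6a and Kdm6b were in 1 list each, and Kdm4d, Kdm5d, Kdm7a and Kdm8 had no listed site.

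Kmt2c, which encodes a histone methyltransferase acting at enhancers, held more sites than any other member. Lists 1, 2 and 3 held 5, 2 and 9 of them, which merged to 14 regions over 136877 bases of chromosome 5. Its best folds were 8.72, 13.2 and 12.8. The site of list 2 at chr5:25609277-25609386 had the highest fold of all member sites of that list, and 98.3% of all sites of list 2 had a lower one. Yet only 2 of the 14 regions were in more than 1 list, both in lists 1 and 3: chr5:25610369-25610517 with folds of 7.81 and 10.0, and chr5:25557225-25557290 with folds of 6.89 and 9.61.

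Setd3 had 3 regions in more than 1 list. Of these, chr12:108074816-108074976 was in every list with the same bounds and folds of 7.2, 4.45 and 11.2, and the scores there, 117, 78.9 and 263, were all above 70. At that stricter score it was the 1 member (1.22% of 82, against 1.27% of all genes) with a region in all 3 lists. At a fold of at least 4.67 the Setd3 region was not kept in all lists, and those of Kdm1b and Phf6 were. The remaining pair of Setd3 regions was in lists 2 and 3, at chr12:108077481-108077566 (folds 7.99 and 8.85) and at chr12:108084216-108084615 (folds 6.22 and 9.15). Kmt2e, whose protein is a divergent relative of the Kmt2 enzymes, had best folds of 5.83, 4.74 and 10.4 and 2 regions shared by a pair of lists. Nsd3 had 5.84, 6.01 and 12.8 with no overlap. Ash1l, Ehmt1, Kmt2a and Nsd2 were in 2 lists, again with no overlap, and Kmt2a, the gene of the founding mixed-lineage leukaemia enzyme, had 13.3 in list 1 and 8.01 in list 2. Setd2 had a single site (list 3, fold 14.5). Ash2l, Kmt5b, Setd5, Setd6 and Setd7 were also in 1 list, and 9 names, among them Kmt2d, Nsd1 and Ehmt2, had no listed site.

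The acetyltransferase genes in all lists were Crebbp, Kat2b, Kat6b and Kat7. Crebbp and Ep300 encode the closely related coactivators CBP and p300. Crebbp had low best folds, 4.25, 6.19 and 7.73 in lists 1, 2 and 3, and its 5 sites did not overlap between lists. Ep300 had 1 site (list 2, fold 4.1). Kat6b reached 12.8, 8.01 and 9.61, also with no overlap. Kat7, the gene of a histone H3 acetyltransferase, had 4.31, 6.49 and 6.28, and shared chr11:95177156-95177266 between lists 2 and 3 (folds 6.49 and 5.04) and chr11:95174855-95175046 between lists 1 and 3 (folds 4.31 and 5.94). Kat2b had 4.64, 5.61 and 10.2, and the site of list 1 lay inside a site of 2022 bases in list 3. Kat14 had the same bounds in lists 2 and 3 (chr2:144217765-144217883, folds 6.7 and 11.5). Kat6a was in lists 1 and 3, and Kat2a, Kat5 and Kat8 had no listed site.

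Among deacetylases, Hdac4, a shuttling class IIa enzyme gene, held the highest fold of all member sites of list 1. That site, chr1:92107724-92108019, had a fold of 25.7 and a score of 357, and was among the 9 highest folds of all sites in list 1. It had no counterpart in lists 2 and 3, where the best folds were 6.28 and 9.61. In Hdac4, 2 positions were shared by a pair of lists, chr1:91923779-91923900 in lists 1 and 2 (folds 6.27 and 6.28) and chr1:91896060-91896180 in lists 2 and 3 (folds 6.01 and 9.61). Hdac2, a class I enzyme gene, had 8.30, 6.30 and 7.95, and lists 1 and 2 shared chr10:36850540-36850799. Hdac1, its close relative, had 2 sites, both in list 3, with a best fold of 11.6. Hdac6 and Hdac7 were in 2 lists, Hdac10 was in 1, and Hdac3, Hdac5, Hdac8, Hdac9 and Hdac11 had no listed site.

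SWI/SNF is built on an ATPase, Smarca2 or Smarca4, with shared core subunits and the alternative subunits of its variants. A site was listed for 14 of its 15 names that match the rule, and the exception was the ATPase gene Smarca4. Of 11 further subunit genes outside the rule, 6 had a site. The share of all protein-coding names with a site was not worked out, so 14 of 15 has no baseline. Smarca2 had 1 site, in list 2, of fold 11.5 and score 211 (chr19:26754735-26755413). In all lists were Brd7 (6.91, 7.53 and 11.6), a subunit gene of the PBAF variant, and the scaffold gene Smarcc2 (5.07, 4.51 and 11.2). Brd7 shared chr8:89063709-89063765 between lists 2 and 3, and Smarcc2 shared chr10:128297221-128297340 between lists 1 and 3. The core subunit gene Smarcb1 had folds of 9.01 in list 1 and 8.42 in list 2 at the same position, chr10:75757137-75757451, with scores of 143 and 270. Smarcd1 shared 2 positions between the same lists, chr15:99602212-99602334 (folds 6.18 and 5.19) and chr15:99603508-99603624 (folds 4.86 and 5.07).

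Arid1b, whose protein defines the BAF variant, had no site in list 1 and 3 positions shared by lists 2 and 3. They were chr17:5293103-5293346 (folds 5.56 and 10.1), chr17:5364149-5364307 (folds 3.65 and 9.22) and chr17:5382762-5382912 (folds 4.65 and 8.01). All of its list 2 sites were therefore found again in list 3. Smarcc1 had 1 site in list 1, none in list 2 and 6 in list 3, without overlap, and Brd9 had folds of 6 and 7.11 in lists 2 and 3. The remaining subunit genes that match the rule were in 1 list each. These were Arid1a (fold 7.81), Smarcd2 (5.13) and Smarcd3 (9.18) in list 1, Arid2 (4.17) in list 2, and Phf10 (4.44) and Smarce1 (4.72) in list 3.

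Among the other remodeller genes, Chd1 held the highest fold of all member sites of list 3. This gene of a remodeller of transcribed genes had a fold of 23.5 and a score of 244 at chr17:15967397-15967468, among the 9 highest folds of that list, and 5.79 in list 1 elsewhere in the gene. Chd1l, a remodeller gene of the DNA damage response, reached 17.6 in list 3 and 12.4 in list 1. Chd9 had best folds of 7.26, 12.4 and 18.0. Its site chr8:91762954-91763226 was the best of both list 2 and list 3 with the same bounds, and the folds there, 12.4 and 18.0, exceeded 97.5% and 99% of the sites of those lists. No other shared position of a member had so high a minimum. A second Chd9 position, chr8:91737240-91737436, was in lists 1 and 3 (folds 7.26 and 10.3). Chd2 had 8.72, 10.5 and 8.73 with no overlap among its 6 sites, and Chd6 had 11.02 in list 1 and 10.41 in list 3 at chr2:160798003-160798122.

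Ino80 encodes the ATPase of a remodeller that acts on nucleosomes with the histone variant H2A.Z. It had best folds of 8.82, 8.69 and 12.6, and lists 1 and 2 shared chr2:119284537-119284698 (folds 8.82 and 7.77). Its subunit gene Ino80b had sites in the same lists that overlapped over 570 bases, with folds of 10.0 and 4.99. Ino80c was in lists 1 and 3 and Ino80d in list 2 (fold 11.2), and Ino80e had no listed site. Smarca5, the ATPase gene of the ISWI complexes, shared chr8:81431234-81431446 between lists 2 and 3 (folds 4.23 and 5.39), and Smarcad1 shared chr6:65060788-65060987 between lists 1 and 3 (folds 4.97 and 6.62). Chd7 and Ep400 were in 2 lists without overlap, Chd8 was in list 3, and Chd3, Chd4 and Chd5 had no listed site.

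**Figure D3:**
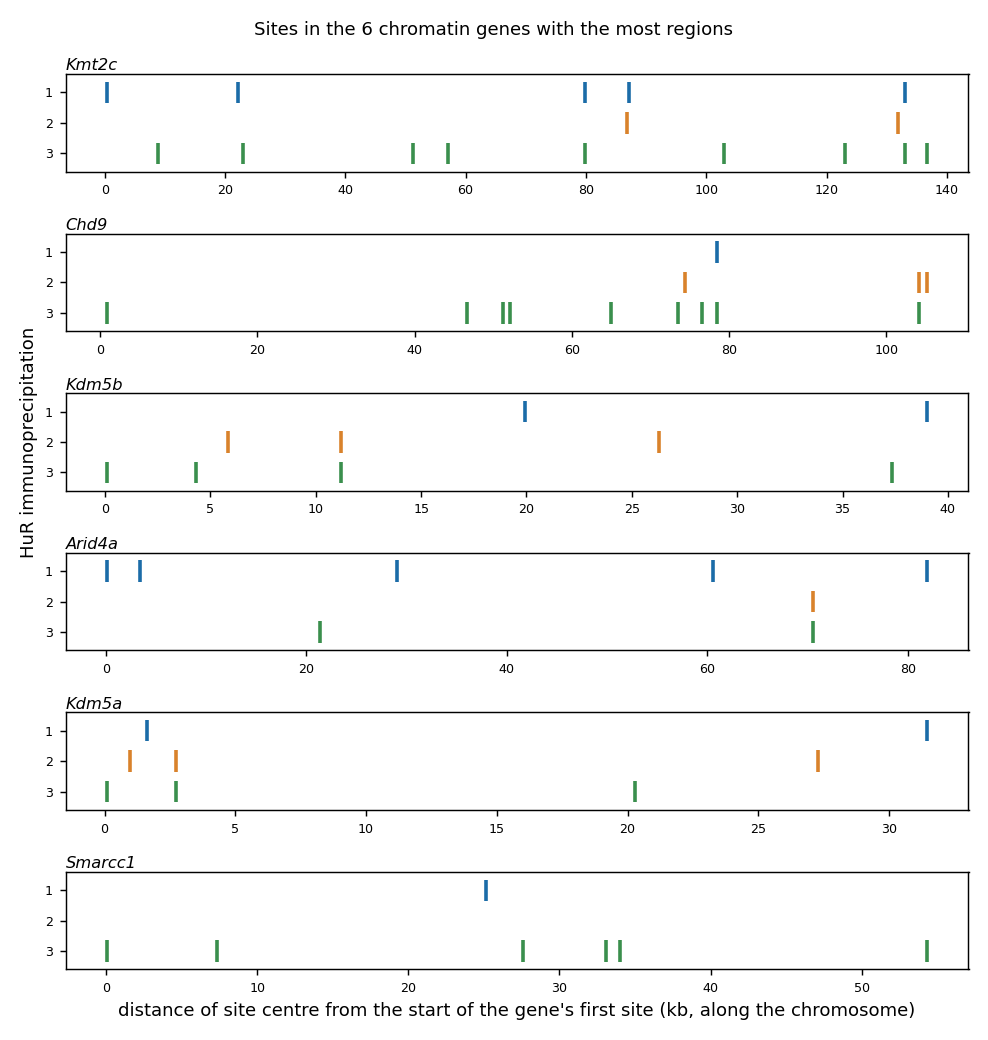
Position of every site in the 6 chromatin genes with the most merged regions, as distance in kb of the site centre from the gene's first site (horizontal axis), with 1 row for each HuR immunoprecipitation. Kmt2c had 14 regions, of which 2 were in more than 1 list, Chd9 had 11 with 2 shared, and Smarcc1 had 7 with none shared.

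For DNA methylation, the maintenance methyltransferase gene Dnmt1 had best folds of 7.21, 5.95 and 6.58, and lists 1 and 2 shared chr9:20851772-20851850 (folds 4.64 and 5.95). The de novo methyltransferase gene Dnmt3a had 8.72, 8.01 and 10.0. It shared chr12:3899635-3899739 between lists 1 and 2, with folds of 8.72 and 8.01, and overlapped between lists 1 and 3 at chr12:3952666-3952814, with folds of 6.43 and 9.21. Tet2, which encodes an oxidase of methylcytosine, had 1 site, in list 3, which was 2436 bases long (fold 5.37). Dnmt3b, Dnmt3l, Tet1 and Tet3 had no listed site.

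Among readers, Brd3 and Phf6 had a region in every list with the same bounds. Brd3, a BET family gene, had exactly 1 site in each list, chr2:27346921-27347049, with folds of 8.19, 4.48 and 7.66. The opposite gene Brd3os had 2 sites in list 2 that did not overlap it. Phf6, an X-linked gene of a nuclear PHD protein, shared chrX:52001143-52001313, with folds of 8.70, 5.69 and 10.8. Its scores there, 59.9, 57.7 and 71.9, were below 70 in lists 1 and 2. Phf20, a reader gene of an acetyltransferase complex, had 7.81, 4.88 and 14.3 and shared chr2:156129721-156129999 between lists 2 and 3. Phf12 reached 14.5 in list 1 and 10.2 in list 2, and Brd2 had no listed site. Brd8, Phf8 and Phf14 were in 2 lists each without overlap. Phf2, Phf3, Phf7, Phf20l1, Phf21a, Phf21b, Phf23 and Phf5a were in 1 list each. Of the ARID genes outside SWI/SNF, Arid4a, a subunit gene of a deacetylase complex, had 12.4, 8.23 and 10.7 and shared chr12:71133229-71133435 between lists 2 and 3. Its relative Arid4b had 18.8 in list 1 alone, and Arid5b had 14.4 in list 3 alone.

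Across all members, 31 genes (33.7%) had sites of at least 2 lists that overlapped by 1 base or more, beside 31.2% of all genes with a site. A region common to all 3 lists was held by 4 members (4.35%), Kdm1b, Phf6, Brd3 and Setd3, against 3.07% of all genes. Both shares lay near those of all genes. At the stricter score, 16 of 82 members (19.5%) had overlapping sites, against 19.6% of all genes. In the 31 genes there were 43 such regions, 10 of them in lists 1 and 2 alone, 11 in lists 1 and 3 and 18 in lists 2 and 3. Of the 90 member sites that overlapped a site of another list (26.3% of 342, against 28.6% of all sites), 82 had the same start and end as that site, which is 91.1%. Over all sites that overlapped another the figure was 76.3%. As a share of all sites listed, 24% of member sites and 21.8% of all sites had the bounds of a site in another list. Without list 1, 18 members (22.2%) had overlapping sites, against 20.6% of all genes. Without list 2 there were 13 (15.7%), against 12.8%, and without list 3 there were 13 (16.7%), against 14.6%.

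**Figure D4:**
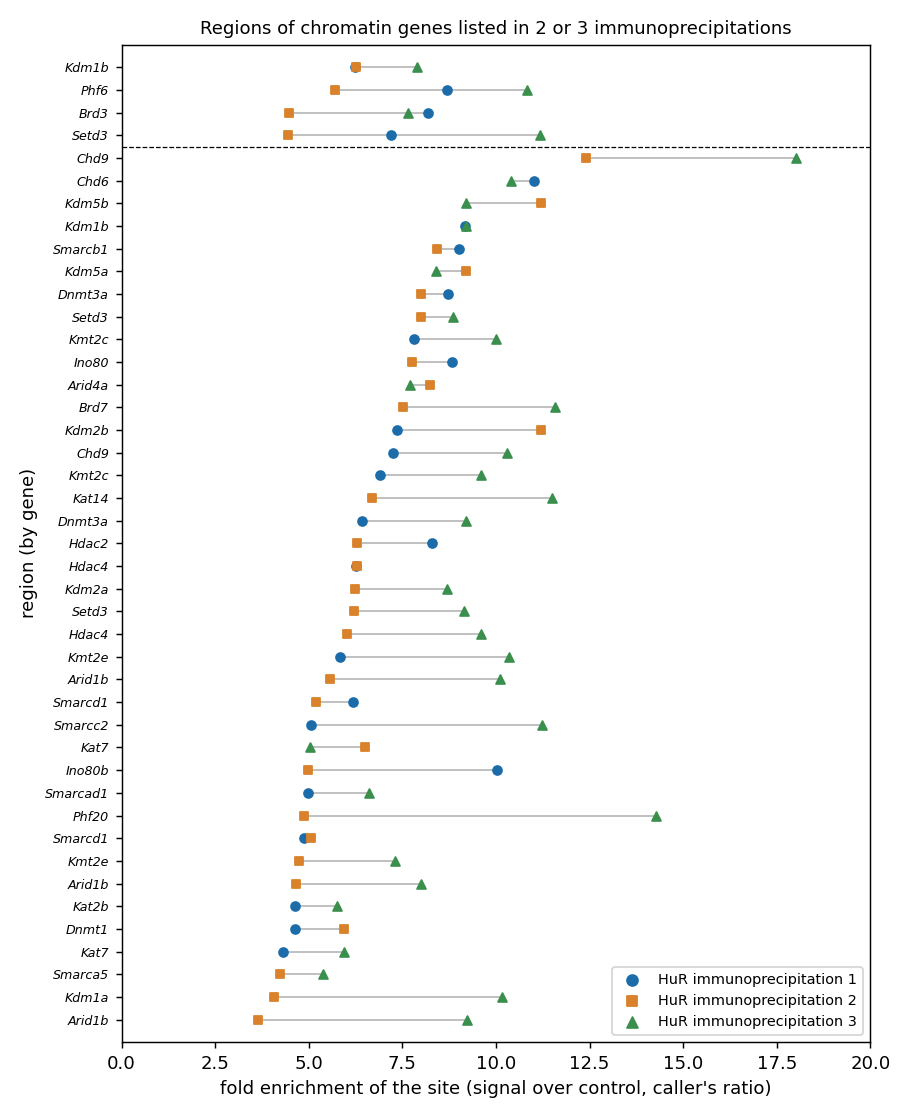
Fold enrichment (horizontal axis, signal over control as the caller gives it) of the 43 regions of chromatin genes listed in at least 2 HuR immunoprecipitations, 1 marker per immunoprecipitation; a gene appears once for each region. The 4 regions above the dashed line were in all 3 lists, and the Chd9 region below it had the highest minimum of the rest, 12.4.

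Among the 25 genes in all lists, 21 (84%) had overlapping sites in some pair of lists, against 76.7% of all 1248 genes in all lists. The other 4 were Chd2, Kat6b, Nsd3 and Crebbp. Of the 33 genes in exactly 2 lists, 10 (30.3%) had overlapping sites, a lower share than the 45.1% of all genes in exactly 2 lists. In the 25 genes the closest sites of lists 1 and 2 overlapped in 9 genes (36%, against 38.5% of the 1248), those of lists 1 and 3 in 11 (44%, against 38.2%) and those of lists 2 and 3 in 14 (56%, against 48.2%). The median gap between the closest sites was 2109 bases for lists 1 and 2, 942 bases for lists 1 and 3 and 0 for lists 2 and 3, and over the 1248 genes it was 2427.5, 2188.5 and 549 bases.

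Members had more regions than genes did in general. After merging, 64 of the 92 (69.6%) had at least 2 regions, against 57.2% of all genes, and the mean was 3.21 regions per gene, against 2.45. In list 3 a member had 2.48 sites on average, where all genes had 2.02. Transcript length was not taken into account.

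The exact folds repeat. In list 2 the value 8.01 occurred at 148 sites, among them sites of Dnmt3a, Hdac7, Kat6b, Kdm2b, Kdm5b, Kmt2a and Phf21b, and in list 1 the value 9.18 occurred at 128 sites, 6 of them in members. Shares of 92%, 98.8% and 96.9% of member sites in lists 1, 2 and 3 had a fold found at another site of the same list, and over all sites the shares were 93.6%, 96.2% and 96.9%, so small differences in fold between these genes do not order them.

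Chromatin genes outside the naming rule were examined from lists of complex partners and related enzymes. Of 132 such genes 86 had a site, and 24 of those (27.9%) were in all lists, against 19.9% of all genes. In SWI/SNF these were Pbrm1 (5.02, 6.05 and 7.92), the defining PBAF subunit gene, and Dpf1. Among other remodellers they were Baz1a, Baz2b, Rsf1, Atrx and Mta1, which reached 19.65 in list 3. Acetyltransferase partners had Taf1, Jade3, Ing3 and Epc1, deacetylase partners had Sin3b and Ncor1, and readers had Brwd1, Brwd3 and Zmynd8. Setdb1 and Jmjd1c were the only such genes in all lists from the methyltransferase and demethylase lists. Of 29 Polycomb genes, 18 had a site and Eed, Pcgf5, Phc1 and Asxl2 were in all lists, with Eed at 5.85, 6.05 and 26.8. Uhrf2 was the one gene of the 132 with a region common to all 3 lists, with folds of 6.84, 7.75 and 6.96. That is 1.16% of the 86 genes with a site, against 3.07% of all genes. The share of all protein-coding names with a site was not worked out, so 86 of 132 and 18 of 29 have no baseline.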

How the data were processed

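Sequencing followed RNA immunoprecipitation. Per the submitters' processing notes, FastQC, cutadapt 1.9.3, STAR and HISAT2 2.0.4 were used with build mm39, with no role or order given. Site names carry the MACS prefix; its version, settings and control library: not given in the sources used here. Per the file headers, the deposited score is a scaled negative log10 of the site's p-value, and fold enrichment is a ratio of signal over control. The deposited FDR is read as percent from its range. These values are the authors', set side by side between lists as a description alone, and read depth is unknown.

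Sites were read with Python 3.11.15 and pandas 2.3.3, and merging was tested on simulated data. Sites of a gene were merged where they overlapped by at least 1 base, treating ends as half-open. Site position relative to exons was not analysed here. The final dot of the naming rule was read as a full stop.

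Members, roles and gene lists were chosen with earlier results of these data known. No test was run, because the lists hold no separate value for IgG or input and members are not replicates. Named members were those with a region in all lists, the 15 with the highest minimum best fold, the 3 highest folds of each list, the 6 with most regions, the 10 best same-bound pairs and the SWI/SNF, p300/CBP, INO80, DNMT and TET families; others are given by lists, apart from some genes that are counted but not reported here by name, and single values beyond this were chosen after they were seen. All 92 names were found in the RefSeq GRCm38 gene table, used for names alone. It names pseudogenes for 8 members (Dnmt3a, Hdac1, Kat2b, Kat6b, Phf20, Phf8, Smarca5 and Smarce1), whose reads are therefore uncertain.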

Additional observations from a re-analysis of the deposited data

How the results depend on the processing

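No paired analysis was possible because the deposited lists give sites of the HuR samples alone, with no separate values for IgG. A score of at least 70 left 15 members in all lists, 16 with overlapping sites, 1 with a region in all lists and 48 sites in list 2. Fewer sites were compared at this setting, and the reason for the lower counts was not tested. A fold of at least 4.67 left 2 members with a region in all lists, Kdm1b and Phf6, and lists of equal length left 1, Setd3. At both settings the other counts stayed within 1.5 times. Requiring a further character after the names in the rule, which drops symbols such as Chd2 and Hdac4, left 56 members, 12 in all lists, 20 with overlapping sites, 1 with a region in all lists, and 66, 46 and 98 sites. Of those 56, 21.4% were in all lists, against 27.2% of the 92. Leaving out each immunoprecipitation gave 78 to 83 members with a site, 33 to 40 in both remaining lists (40 without immunoprecipitation 2) and 13 to 18 with overlapping sites of both, below the 31 and above the 4 with a region in all lists. Leaving a list out takes away 2 of the 3 pairs and asks for 2 lists instead of 3. With the best site of each gene alone the median fold of list 3 was 10.3. Stricter overlap kept both overlap counts within 1.5 times. Unknown depth, and an FDR above 9% at each member site, limit every statement that a site is listed or is not.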
